A study of Homo sapiens with 6 samples.

Results

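Aminoacyl-tRNA synthetases are the enzymes that load each amino acid onto its transfer RNA (tRNA). The 36 genes described here were taken by gene symbol, as a list of cytosolic and mitochondrial synthetases under the older names used in the count table (WARS for WARS1, for example), out of 37887 rows. There were 20 cytosolic and 16 mitochondrial genes, and 35 of the 36 passed the filter on low counts. VARS2, the mitochondrial valine enzyme, had 0 counts in all 6 libraries, which allows a level of up to 0.161 CPM (counts per 1000000 counts of the library) in the shallowest library, for counting error only.

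RNA was sequenced from the human line MDA-MB-436, established from a triple-negative breast cancer with mutant BRCA1, to learn which transcripts change when MUC1 is silenced. All 6 cultures stably carried a doxycycline-inducible shRNA against MUC1 in a puromycin-selected lentiviral vector. The control group received 0.1% DMSO as vehicle (n = 3), and the shMUC1 group received 500 ng/ml doxycycline (n = 3). Titles of the control samples speak of a control shRNA, but their treatment label and the series design give vehicle on the same inducible cells, which was followed here. No library from cells with a control shRNA and doxycycline was analysed here, so silencing of MUC1 and doxycycline itself cannot be told apart, and only 1 MUC1 shRNA was used. The length of treatment for this line is not given in the sources used here.

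Each synthetase recognises its amino acid and the matching tRNAs, and most amino acids have a nuclear gene for the cytosol and another for the mitochondrial matrix. Several cytosolic enzymes sit together in the multisynthetase complex on the scaffold proteins AIMP1, AIMP2 and EEF1E1. Many cytosolic synthetase genes are known targets of ATF4, the transcription factor of the amino acid stress response, and WARS is a classical interferon-gamma-inducible gene.

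The synthetases did not move as a block. WARS and DARS, the cytosolic tryptophan and aspartate enzymes, had the deepest falls. WARS fell by 57.3% and DARS fell by 55.9%, while most of the other cytosolic enzymes rose by modest amounts. Of the 35 tested members, 20 rose and 5 fell at an adjusted p under 0.05 (edgeR, quasi-likelihood, Benjamini-Hochberg over 15355 genes). Among all tested genes, 25.2% rose and 23.6% fell by the same rule. The median log2 fold change (shMUC1 minus control) was 0.14 over the 35 members, and 0.000583 over all tested genes. At a fold change over 2 as well, 0 members rose and 2 fell, WARS and DARS, against 2.21% of all genes higher and 3.74% lower. The steepest rise was that of PARS2, at 0.60 on the log2 scale, so no rise reached that fold by any rule on p.

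**Figure D1:**
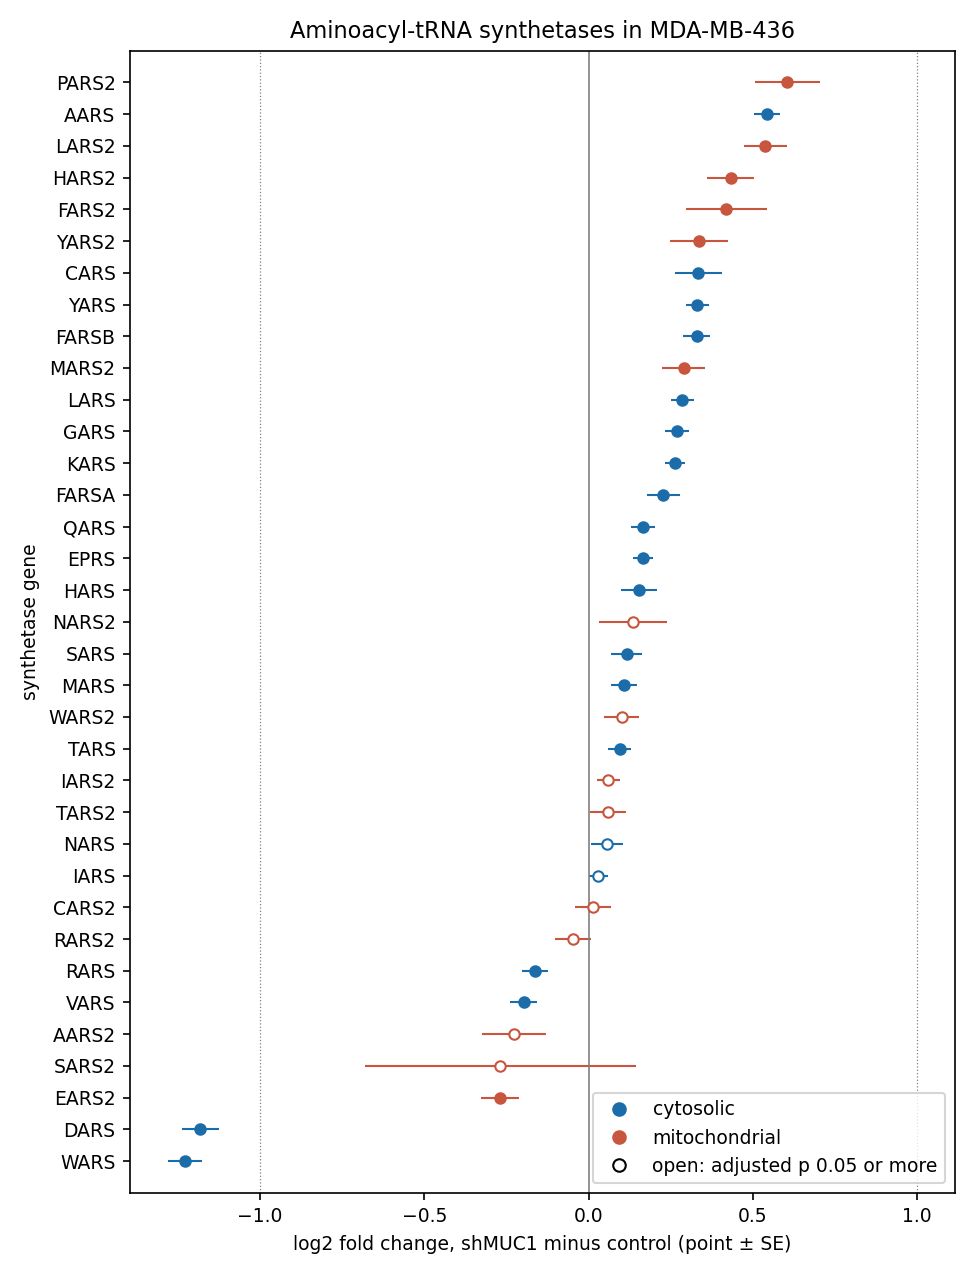
Log2 fold change (shMUC1 minus control) of the 35 tested synthetase genes, with bars of 1 SE, cytosolic genes in blue and mitochondrial genes in red, filled points for an adjusted p under 0.05 and dotted lines at a fold change of 2. WARS (-1.23) and DARS (-1.18) stand far from the other genes, which lie between -0.27 and 0.60.

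Most members were abundant transcripts, and abundant genes pass the test more often. Among the 7280 genes whose mean reached 500 counts, 37.1% rose and 28.3% fell, and 18 of the 30 members above that level rose and 5 fell. Levels in CPM did not overlap between the groups for 28 of the 35 members, against 54.8% of all tested genes, a share not limited to abundant genes. Those 28 were the 25 that passed the test and AARS2, RARS2 and TARS2, which did not.

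Library totals ran from 18678307 to 27825546 counts. MUC1, the targeted gene, had 84 to 102 counts in control and 34 to 72 in shMUC1 libraries, with a log2 fold change of -0.84. Its exons share 48 of 4717 bases with AL713999.1 on the same strand. Its counts were low, so its fold change is less certain than those of abundant genes. The cells lacked ESR1 and PGR transcripts beyond 0.645 CPM. ERBB2, the third receptor marker examined, was present, at 44.7 ± 2.41 CPM in control and 39.0 ± 0.463 CPM in shMUC1 libraries (SD). It was called lower (log2 fold change -0.20, adjusted p = 0.0074 by edgeR). Of 4 blood, endothelial and fibroblast markers, CD3E was at 0 in all 6 libraries, PTPRC rose, and PECAM1 and COL1A1 fell, with a summed level of 3.79 to 5.73 CPM in control and 2.96 to 3.55 CPM in shMUC1 libraries. All 4 mesenchymal markers examined fell, with a summed level of 1252 to 1310 CPM in control and 785 to 847 CPM in shMUC1 libraries. Of 5 epithelial markers 4 rose, and the summed level of the 5 was 541 to 575 CPM in control and 1091 to 1132 CPM in shMUC1 libraries. The largest parts of these sums were VIM (718 CPM in control) and KRT8 (426 CPM in control). CDH1 and EPCAM rose only to 6.02 and 14.3 CPM. These calls stand beside 25.2% of all tested genes higher and 23.6% lower. The share of counts from mitochondrially encoded genes was 3.35% to 4.17% in control and 4.95% to 5.22% in shMUC1 libraries. The part of these shifts in the synthetase values was not tested, and in bulk RNA fewer cells that express a gene and less RNA per cell cannot be told apart.

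WARS charges tRNA with tryptophan in the cytosol, and is encoded at chr14:100333788-100376805 on the minus strand (GRCh38, GENCODE 29). Its level was 122, 112 and 115 CPM in the 3 control libraries and 47.2, 54.4 and 47.3 CPM in the 3 shMUC1 libraries. Every shMUC1 library held less than every control library, by a wide gap. The mean went from 117 ± 5.04 to 49.6 ± 4.13 CPM (SD, n = 3 each). Its log2 fold change was -1.23 (SE 0.052, adjusted p = 4.23e-21). WARS stood at rank 381 from the lowest of the 15355 fold changes. Across 15 other ways of processing the counts its log2 fold change lay between -1.30 and -1.19.

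DARS charges tRNA with aspartate and is a member of the multisynthetase complex, with its gene at chr2:135906677-135986100 on the minus strand. It held 73.3, 79.7 and 73.5 CPM in control libraries and 33.6, 32.6 and 33.8 CPM in shMUC1 libraries. The 3 shMUC1 values were nearly equal and all lay far below control. The mean went from 75.5 ± 3.64 to 33.3 ± 0.637 CPM (SD, n = 3 each). Its log2 fold change was -1.18 (SE 0.0562, adjusted p = 1.5e-19, rank 420 from the lowest). Exons of both genes overlap exons on the opposite strand, over 672 bases for WARS (WDR25 and AL157871.4) and 305 bases for DARS (DARS-AS1), and the strand setting of the counting is not stated.

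AIMP2, the scaffold protein that holds several enzymes of the complex together and binds DARS, fell with it. AIMP2 was at 45.9, 44.7 and 43.9 CPM in control and at 16.03, 17.6 and 16.4 CPM in shMUC1 libraries. The groups were well apart, with a log2 fold change of -1.42 (SE 0.0722, adjusted p = 9.55e-19). The other scaffolds gave no call: AIMP1 changed by 0.05 (adjusted p = 0.397) and EEF1E1 by 0.05 (adjusted p = 0.764). Of the 3 scaffold genes 1 thus fell and 0 rose, also by DESeq2, by limma-voom and at an unadjusted p under 0.05. By edgeR 25.2% of all tested genes rose and 23.6% fell. AIMP2 shares 532 exon bases with EIF2AK1 on the opposite strand.

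**Figure D2:**
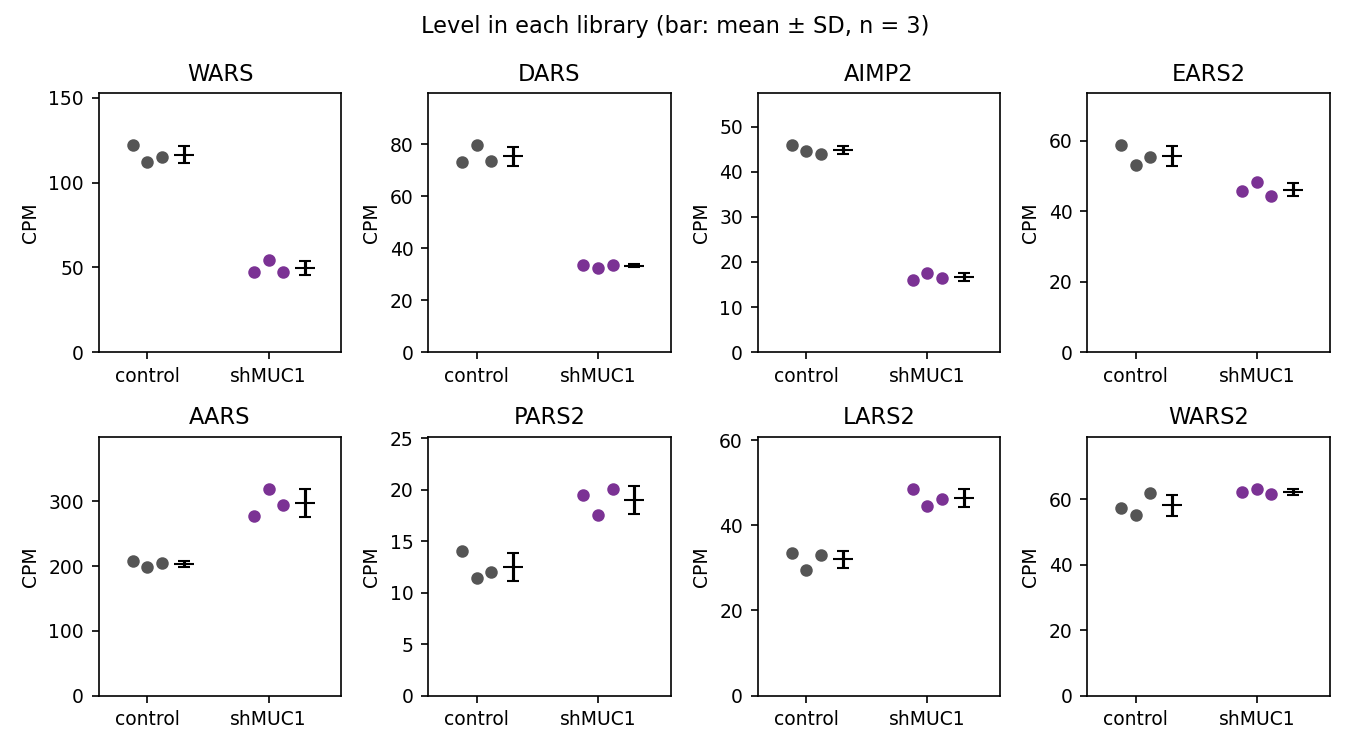
Level in CPM in each of the 3 control and 3 shMUC1 libraries for WARS, DARS, AIMP2 and EARS2 (upper row) and AARS, PARS2, LARS2 and WARS2 (lower row), each axis starting at 0, with bars for the group mean ± SD (n = 3). The groups are apart in every panel except that of WARS2, whose 3 control libraries span 55.3 to 61.8 CPM and whose shMUC1 libraries span 61.5 to 63.3 CPM.

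The 3′ untranslated regions (UTRs) of WARS, DARS and AIMP2 share a 7-base word, ATCAGTA, shown here in capitals within its surroundings (for WARS, AIMP2 and WARS2) because it is common to these falling transcripts and to WARS2, which did not pass the test (GRCh38, GENCODE 29, RNA sense with T for U).
WARS (chr14:100334832-100334838, minus strand): agaagtgatgtATCAGTAatgtatcaata
AIMP2 (chr7:6023752-6023758, plus strand): tcatgcctattATCAGTAaggggacttgt
WARS2 (chr1:119031573-119031579, minus strand): ataagttttttATCAGTAaggaccatgat
The word was picked in an earlier scan of these same fold changes, so its presence in falling genes is not independent evidence of anything. The sequence of the MUC1 shRNA was not used here, so its match to these transcripts was not tested. It lies in 6 of the 7 annotated WARS transcripts that have a 3′ UTR, in 1 of 3 for AIMP2 and in both for WARS2.

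Among the 36 members only DARS, WARS and WARS2 hold the word in an annotated 3′ UTR, a share of 8.33%. Among 13023 tested genes with a 3′ UTR the share was 12.8%. Of those 1661 genes with the word, 43.2% fell, 20.7% rose and the median log2 fold change was -0.12. Of the 8100 genes with neither the word nor its last 6 bases, 19.8% fell and the median was 0.04. Of the 3262 genes with those 6 bases but not the word, 28.8% fell and the median was -0.0072. A fall as deep as that of DARS was seen in 4.76% of genes with the word and 2.02% of genes with neither. These shares rest on the fold changes from which the word was picked, and WARS, DARS and AIMP2 are counted in them. The genes were not matched for the length of the 3′ UTR, so the shares cannot show a link to the word. EARS2, VARS and RARS, the other members that fell, lack the word, and a match of letters does not show that a site is used. EARS2 holds the last 6 bases, as do LARS and TARS, which rose, and IARS and NARS2, which had no call.

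EARS2, VARS and RARS fell by much less. EARS2, which charges mitochondrial tRNA with glutamate, was at 58.7, 53.0 and 55.5 CPM in control and 45.8, 48.3 and 44.3 CPM in shMUC1 libraries (log2 fold change -0.27, SE 0.0574, adjusted p = 0.000157). VARS, the cytosolic valine enzyme, was at 128, 128 and 135 CPM in control and 110, 116 and 116 CPM in shMUC1 libraries (-0.20, SE 0.0407, adjusted p = 0.000109). RARS, the arginine enzyme of the complex, was at 179, 182 and 165 CPM in control and 155, 153 and 162 CPM in shMUC1 libraries (-0.16, SE 0.0397, adjusted p = 0.000756). In each of these genes the groups did not overlap, although the highest shMUC1 library of RARS lay close to its lowest control library.

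The largest rises were shared by both compartments. PARS2, which charges mitochondrial tRNA with proline, rose from 14.0, 11.5 and 12.04 CPM in control to 19.5, 17.5 and 20.1 CPM in shMUC1 libraries (log2 fold change 0.60, SE 0.0994, adjusted p = 3.32e-06). AARS, the cytosolic alanine enzyme, rose from 207, 199 and 205 CPM to 277, 319 and 294 CPM (0.54, SE 0.0392, adjusted p = 2.29e-14). LARS2, the mitochondrial leucine enzyme, rose from 33.4, 29.6 and 32.9 CPM to 48.6, 44.5 and 46.1 CPM (0.54, SE 0.0653, adjusted p = 8.93e-09). For all 3 of these genes the lowest shMUC1 library lay clearly above the highest control library.

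HARS2, the mitochondrial histidine enzyme, was at 27.0, 25.0 and 29.5 CPM in control and 36.3, 37.8 and 36.01 CPM in shMUC1 libraries (log2 fold change 0.43, SE 0.0715, adjusted p = 3.65e-06). FARS2, the single-chain phenylalanine enzyme of mitochondria, was at 7.39, 7.96 and 6.89 CPM in control and 10.9, 9.82 and 8.92 CPM in shMUC1 libraries (0.42, SE 0.124, adjusted p = 0.00503). YARS2, the mitochondrial tyrosine enzyme, was at 17.2, 19.4 and 19.98 CPM in control and 24.4, 26.0 and 20.9 CPM in shMUC1 libraries (0.34, SE 0.0885, adjusted p = 0.0017). The groups were separate in each, but shMUC1 replicate 3 of YARS2 lay within 1 CPM of the control libraries. HARS and HARS2 lie head to head and share 437 exon bases on opposite strands.

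Among cytosolic enzymes, CARS, which charges cysteine, was at 27.82, 25.8 and 26.8 CPM in control and 32.4, 34.2 and 34.9 CPM in shMUC1 libraries (log2 fold change 0.33, SE 0.0705, adjusted p = 0.00014). YARS, which charges tyrosine, was at 221, 224 and 225 CPM in control and 274, 292 and 278 CPM in shMUC1 libraries (0.33, SE 0.0342, adjusted p = 2.24e-10). These libraries were tightly grouped and did not overlap. FARSB, LARS and FARSA rose by 0.33, 0.28 and 0.23 on the log2 scale, FARSA and FARSB being the subunits of the cytosolic phenylalanine enzyme. QARS, HARS, SARS, MARS and TARS rose by 0.17, 0.15, 0.12, 0.11 and 0.09. The calls of HARS, MARS, SARS and TARS were lost under 4, 6, 7 and 4 of 15 alternatives. MARS2, of mitochondria, rose by 0.29.

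Some enzymes serve more than a single compartment or amino acid. GARS and KARS each give both the cytosolic and the mitochondrial enzyme, for glycine and for lysine. GARS was at 165, 163 and 156 CPM in control and 194, 196 and 192 CPM in shMUC1 libraries (log2 fold change 0.27, SE 0.0365, adjusted p = 9.6e-08). KARS was at 369, 350 and 355 CPM in control and 430, 432 and 427 CPM in shMUC1 libraries (0.26, SE 0.0313, adjusted p = 5.58e-09). EPRS, a fused enzyme for glutamate and proline, was at 406, 401 and 390 CPM in control and 449, 441 and 451 CPM in shMUC1 libraries (0.16, SE 0.0308, adjusted p = 2.54e-05). All 3 of these shared enzymes were higher in every shMUC1 library than in any control library.

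The 10 tested members without a call were IARS and NARS of the cytosol and AARS2, CARS2, IARS2, NARS2, RARS2, SARS2, TARS2 and WARS2 of mitochondria. IARS, the isoleucine enzyme and the most abundant member, was at 793 ± 15.0 CPM in control and 809 ± 20.2 CPM in shMUC1 cells (SD, n = 3 each, log2 fold change 0.03, adjusted p = 0.41). AARS2 stood just outside the threshold at -0.23 (adjusted p = 0.0531) and passed it under 5 of 15 alternatives. SARS2 had 12 to 32 counts in any library, too few to show a change of moderate size, and shares 1492 of its 3231 exon bases with AC011455.2 on the same strand. VARS2, at 0, shares 1858 of 8448 exon bases with GTF2H4 on the same strand. EEF1G, which is not a member, was also at 0 in all libraries and shares 2714 of its 2716 exon bases with AP002990.1 on the same strand. Whether these zeros come from the way reads were assigned was not tested, so the 0 of VARS2 does not show that its RNA is absent.

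Cytosolic and mitochondrial enzymes were then set against each other. Of the 20 cytosolic genes 14 rose and 4 fell, and the median of their log2 fold changes was 0.16. Of the 15 tested mitochondrial genes 6 rose and 1 fell, with a median of 0.10 and a range of -0.27 to 0.60. By the same rule 25.2% of all tested genes rose and 23.6% fell. The summed level of the cytosolic genes was 3785, 3749 and 3723 CPM in control and 4020, 4139 and 4081 CPM in shMUC1 libraries, a log2 ratio of means of 0.12. The summed level of the mitochondrial genes was 650, 649 and 671 CPM in control and 708, 712 and 699 CPM in shMUC1 libraries, a log2 ratio of 0.10. Both sums were higher in every shMUC1 library, by nearly the same proportion. Leaving WARS and DARS out of the cytosolic sum gave a log2 ratio of 0.17.

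CPM per kilobase of exon used the merged length of all annotated exons of a gene, such as 10037 bases for CARS and 2152 for YARS2. A single transcript can be much shorter, so this scale compares genes only roughly. By median, the cytosolic enzymes were the more abundant on it. Their control levels ran from 2.67 (CARS) through a median of 27.4 to 107 (IARS). The mitochondrial enzymes ran from 0.282 (SARS2) through a median of 7.28 to 55.0 (IARS2). In shMUC1 cells the medians on this scale were 33.3 and 8.11. WARS went from 18.3 to 7.81 and DARS from 18.8 to 8.30 CPM per kilobase, and so came close to the mitochondrial median.

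For 16 pairs of a cytosolic and a mitochondrial enzyme of the same amino acid, the log2 ratio of their counts was taken in each library. DARS entered no pair. The ratio was lower in every shMUC1 library than in any control library for 6 pairs, higher for 3 and overlapping for 7. The 9 pairs without overlap were 56.2% of the 16, close to the 54.8% of single genes without overlap among all tested genes, so the count by itself is no result about the pairs. With 3 libraries against 3 the two-sided exact permutation test cannot give a p below 0.1, and the smallest value adjusted over the 16 pairs was 0.178, so no pair could pass. The ratio of WARS to WARS2 went from 1.004 ± 0.0972 in control to -0.33 ± 0.100 in shMUC1 cells (SD of the log2 ratio, n = 3 each). WARS RNA therefore gave more counts than WARS2 in control libraries and fewer in shMUC1 libraries.

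WARS2, the mitochondrial tryptophan enzyme, was itself at 57.3, 55.3 and 61.8 CPM in control and 62.4, 63.3 and 61.5 CPM in shMUC1 libraries (log2 fold change 0.10, SE 0.0531, adjusted p = 0.115). Its groups overlapped by a narrow margin, at control replicate 3. Without that library it passed the test, at an adjusted p of 0.046. The cytosolic enzyme carried most of the shift in this pair.

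Alanine showed the opposite order, with the log2 ratio of AARS to AARS2 higher by 0.78 in shMUC1 cells. The ratios of EPRS to EARS2 and of CARS to CARS2 were higher by 0.44 and 0.32. For EPRS, the partner for the other amino acid went the other way, since the ratio to PARS2 differed by -0.44. The ratios for histidine, leucine, methionine and arginine differed by -0.28, -0.25, -0.19 and -0.11, without overlap. For histidine, leucine and methionine both enzymes rose, the mitochondrial enzyme by more.

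**Figure D3:**
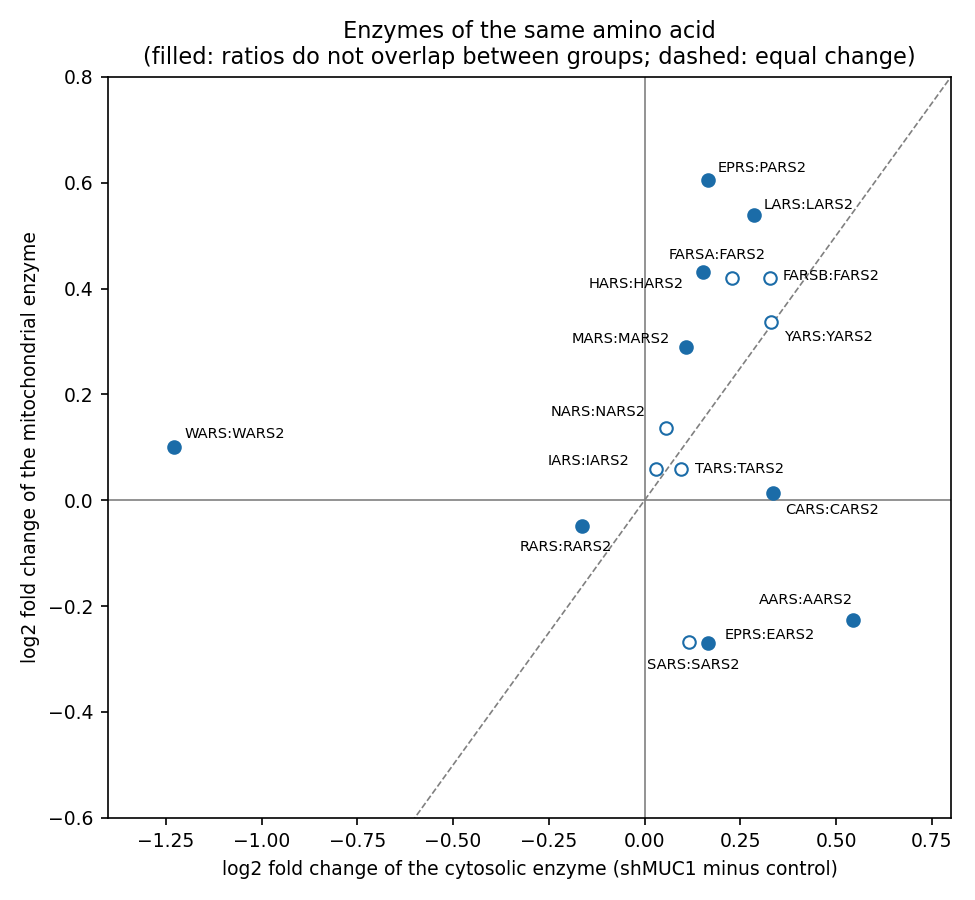
Log2 fold change of the cytosolic enzyme (x axis) against that of the mitochondrial enzyme (y axis) for 16 pairs, filled where the ratio of the pair does not overlap between groups, with a dashed line for equal change. WARS:WARS2 lies far to the left, with WARS at -1.23 and WARS2 at 0.10.

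Of the 8 enzymes of the multisynthetase complex (EPRS, IARS, LARS, QARS, MARS, KARS, RARS and DARS), 5 rose and 2 fell, and their median on the log2 scale was 0.14. Of the 12 cytosolic enzymes outside it 9 rose and 2 fell, with a median of 0.19. By the catalytic fold, 8 of 17 class I genes rose and 4 fell, and 11 of 17 class II genes rose and 1 fell. WARS belongs to class I and DARS to class II. These counts describe the groups and were not tested against each other. Among all tested genes 25.2% rose and 23.6% fell by the same rule.

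Promoters were read because synthetase genes are known to carry amino acid response elements, to which ATF4 binds with a C/EBP partner. RefSeq promoters (GRCh38.p14, 250 bases before to 50 after the start) matched 30 of the 36 members, AARS2, DARS, LARS, VARS, VARS2 and YARS being the others. The core TGATGNAA, on either strand, was present in 8 of the 30. It stands in capitals in these windows, in the direction of the gene, where the motif on the other strand reads as its reverse complement.
AARS (chr16:70289686-70289693, minus strand): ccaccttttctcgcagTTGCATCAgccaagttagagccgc
CARS (chr11:3057418-3057425, minus strand): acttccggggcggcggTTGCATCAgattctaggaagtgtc
GARS (chr7:30594845-30594852, plus strand): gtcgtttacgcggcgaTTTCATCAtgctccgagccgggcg
IARS (chr9:92293703-92293710, minus strand): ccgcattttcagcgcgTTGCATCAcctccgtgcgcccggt
MARS (chr12:57488064-57488071, plus strand): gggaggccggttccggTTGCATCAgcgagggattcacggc
NARS (chr18:57621815-57621822, minus strand): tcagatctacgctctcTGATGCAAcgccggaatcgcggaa
TARS (chr5:33440967-33440974, plus strand): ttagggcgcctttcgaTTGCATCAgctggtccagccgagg
YARS2 (chr12:32756087-32756094, minus strand): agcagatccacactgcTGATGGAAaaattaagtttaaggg
Of all 35116 promoters of this length 3.62% held the core, and of 27305 genes 4.46% had a promoter with it.

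Of the 8 members with the core, 6 rose (AARS, CARS, GARS, MARS, TARS and YARS2) and 0 fell by edgeR, DESeq2 and limma-voom and at an unadjusted p under 0.05, and their log2 fold changes had a median of 0.19. IARS and NARS, which also hold it, did not pass the test. Of the 22 tested members whose promoter lacks it, 12 rose and 3 fell, with a median of 0.14. Among all tested genes 25.2% rose and 23.6% fell by edgeR. Rises were therefore seen with and without the core, and a match in this window says nothing about whether the factor binds there.

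The amino acid stress genes themselves were mixed. Of 24 tested genes of this response, 13 rose and 6 fell, where 25.2% of all tested genes rose and 23.6% fell. Their log2 fold changes ran from -0.97 to 1.19 around a median of 0.19. ATF4 RNA was at 78.8 ± 5.89 CPM in control and 76.7 ± 6.33 CPM in shMUC1 cells (SD, n = 3 each, log2 fold change -0.03, adjusted p = 0.659). CHAC1, which breaks down glutathione, rose from 3.23 ± 0.393 to 7.34 ± 0.889 CPM (1.19, SE 0.162, adjusted p = 9.83e-08). ATF3, a stress-induced transcription factor, rose from 11.7 ± 1.04 to 20.2 ± 1.72 CPM (0.79, SE 0.0988, adjusted p = 1.59e-08). ATF5, a related factor, fell from 29.3 ± 2.11 to 15.1 ± 2.16 CPM (-0.97, SE 0.0912, adjusted p = 2.58e-11). ATF4 is known to be controlled largely at translation, which RNA counts do not measure.

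WARS was compared with other interferon-gamma-inducible genes. Of 11 tested genes of that list, 0 rose and 0 fell by edgeR, by DESeq2, by limma-voom and at an unadjusted p under 0.05, and their log2 fold changes had a median of -0.08 and ran from -0.66 to 0.60. Among all tested genes 25.2% rose and 23.6% fell by edgeR. IRF1, an interferon-induced transcription factor, was at 6.92 ± 0.494 CPM in control and 6.35 ± 0.419 CPM in shMUC1 cells (-0.13, SE 0.138, adjusted p = 0.465). Of these 11 genes 6 had a mean under 50 counts, with SEs from 0.263 to 0.461, so that changes of moderate size in them could not be detected at this depth. Levels in CPM did not overlap between the groups for 2 of these 11 genes, against 54.8% of all tested genes. CD274 was lower, at -0.66 (adjusted p = 0.101), and GBP2 was higher, at 0.60 (adjusted p = 0.196). Both are among the 6 genes with few counts.

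An interferon-stimulated element has paired GAAA and GAA cores, searched here as GAAANNGAA on either strand. WARS holds it upstream of its downstream annotated start, shown in capitals in the direction of the gene.
WARS (chr14:100375394-100375402, minus strand): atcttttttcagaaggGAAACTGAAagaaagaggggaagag
EARS2, GARS and IARS also hold this pattern, so that 4 of 30 matched members did, or 13.3%, against 9.86% of 27305 genes. Of these 4, WARS and EARS2 fell, GARS rose and IARS did not pass the test, where 25.2% of all tested genes rose and 23.6% fell. A link of the pattern to these changes was not tested.

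**Figure D4:**
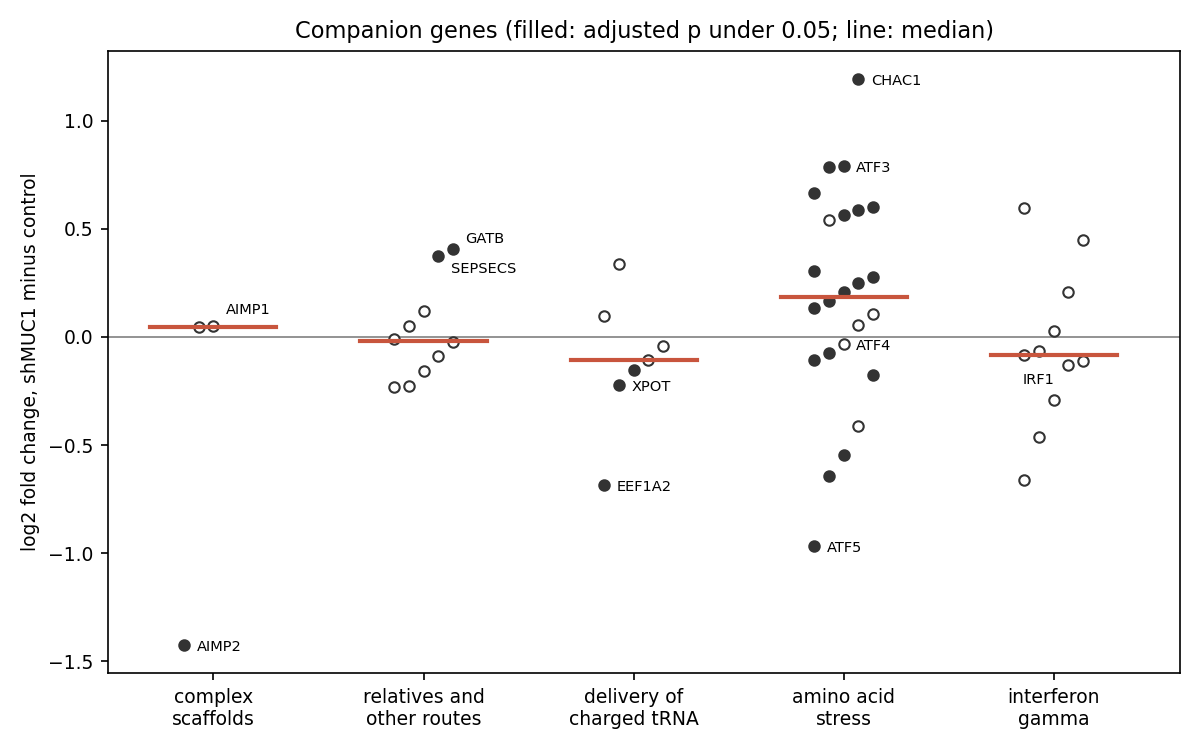
Log2 fold change (shMUC1 minus control) of companion genes in 5 lists, filled for an adjusted p under 0.05, with a line at each list's median. AIMP2 (-1.42) is the lowest point and CHAC1 (1.19) the highest, while ATF4 (-0.03) and IRF1 (-0.13) lie near 0.

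Genes that act beside or after the synthetases were also examined. Of 10 related genes and enzymes of other routes to charged tRNA, 2 rose and 0 fell by edgeR and DESeq2, while limma-voom called 1 lower and 1 was lower at an unadjusted p under 0.05. As 25.2% of all tested genes rose and 23.6% fell by edgeR, these counts by themselves are no result about the list. GATB, a subunit of the mitochondrial enzyme that turns glutamate on tRNA into glutamine, rose from 30.5 ± 0.688 to 40.3 ± 3.9 CPM (log2 fold change 0.41, SE 0.0699, adjusted p = 7.22e-06). SEPSECS, which completes selenocysteine on its tRNA, rose from 23.0 ± 1.49 to 29.7 ± 1.28 CPM (0.37, SE 0.0766, adjusted p = 9.94e-05).

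A further list held genes of tRNA export, of the elongation factors and of their exchange factors. Of its 7 tested genes, 3 fell and 0 rose by edgeR, DESeq2 and limma-voom, and at an unadjusted p under 0.05 4 were lower and 0 higher. Among all tested genes 25.2% rose and 23.6% fell by edgeR. EEF1A2, a tissue-restricted form of the elongation factor that carries charged tRNA, fell from 170 ± 7.23 to 106 ± 2.85 CPM (log2 fold change -0.68, SE 0.0405, adjusted p = 8.93e-17). XPOT, the nuclear exporter of tRNA, fell from 208 ± 8.89 to 178 ± 9.12 CPM (-0.22, SE 0.0393, adjusted p = 1.16e-05). EEF1A1, the common form of the elongation factor, fell by 0.15 on the log2 scale (SE 0.023, adjusted p = 7.82e-07). The word ATCAGTA is present in the 3′ UTR of XPOT and EEF1A1, and not in that of EEF1A2. Over the 5 companion lists it is present in 6 tested genes, of which AIMP2, XPOT and EEF1A1 fell, CEBPG rose (log2 fold change 0.30, adjusted p = 0.000129), and DTD1 (0.12) and CIITA (-0.46) did not pass the test. Outside these lists the word is also in a 3′ UTR of MUC1, the targeted gene (-0.84, called lower). Among the tested cell markers only ZEB1 holds it (-0.97, called lower), and the other markers that rose or fell lack it. The word was picked from these same fold changes, so these genes are not independent evidence for it. What the word has to do with these falls was not tested.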

How the data were processed

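For each of 6 libraries (TruSeq Stranded mRNA), the authors deposited unnormalized counts by gene symbol. Per the labels, the processing used GRCh38.p7, CASAVA 1.8.2, STAR 2.7.9a, featureCounts and DESeq2 1.24.0, and the strand setting and annotation release are not given in the sources used here. From 68.8% to 70.5% of values from 1 to 20 were even, and halved counts were therefore tried. Counts were tested, two-sided, with edgeR 4.0.16 (R 4.3.3; TMM, filterByExpr, group as the only term) over 15355 genes, with Benjamini-Hochberg adjustment. CPM used TMM-scaled totals, standard errors came from the quasi-likelihood F statistic, and log2 ratios of pairs used 0.5 added to each count. Cultures were grown in triplicate per the labels, and p-values measure the spread between these cultures. Members and lists were chosen with earlier results of these data known. Per-library values were given for the 8 largest rises and the called falls, and for WARS, WARS2, GARS, KARS and EPRS. At most 3 called genes per companion list were named, with ATF4 and IRF1. AIMP1, EEF1E1, EEF1G, CEBPG, DTD1, CIITA, CD274, GBP2 and the cell markers were named after their values were seen. A gene of the interferon-gamma list, an enzyme pair and a sequence are not reported, and neither that gene nor that pair enters the counts. DESeq2 1.42.0, limma-voom 3.58.1, other scalings and filters, a replicate block and each library left out were alternatives. The test was checked on simulated data with far fewer changed genes than were called here. It recovered 83 of 100 changes of 1 and 70 of 100 changes of 0.5 on the log2 scale. There were 12 false calls over 15141 genes, and small changes can thus be missed.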

Additional observations from a re-analysis of the deposited data

How the results depend on the processing

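Over the alternatives, 491 of 524 member values kept both direction and call, 21 lost the call, 6 gained it and 6, all of CARS2 and SARS2, changed sign. CARS2 was -0.00865 with library totals only and -0.00930 with a mean minimum of 50 counts, and leaving out each library gave -0.0168 to 0.0494 for CARS2, -0.558 to 0.0101 for SARS2, -0.0219 to 0.137 for EEF1E1 and -0.0907 to 0.0278 for ATF4. With a fold change over 2 required, 0 cytosolic genes rose and 2 fell, 0 mitochondrial genes rose and 0 fell, and of the companion genes 1 rose and 1 fell. The mitochondrial genes that fell numbered 2 with DESeq2 size factors, library totals, a mean of at least 50 counts or halved counts, as AARS2 then passed. Leaving out each library gave 10 to 13 cytosolic rises, 1 to 2 mitochondrial falls (2 without shMUC1 replicate 2), and medians of 0.14 to 0.17 (cytosolic) and 0.0694 to 0.104 (mitochondrial). With library totals the medians were 0.137 and 0.0788 and the summed levels differed by 0.0993 and 0.0827. A mean of at least 50 counts gave a cytosolic median of 0.14. Without IARS, an alternative chosen after seeing the data, the cytosolic sum differed by 0.14. Replicate numbers do not pair the samples (correlations of deviations 0.0167, -0.0311 and -0.0359). A replicate block changed 0 member calls and gave WARS -1.23 and DARS -1.18. The causes of these shifts were not tested. SARS2 had few counts and VARS2 none, and both overlap another gene on the same strand.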
